A study of Mus musculus with 3 samples.

Results

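The genes described here encode the nuclear subunits of oxidative phosphorylation, the respiratory chain and ATP synthase of the inner mitochondrial membrane. They were chosen by symbol (Nduf a, b, c, s and v subunits, Sdha to Sdhd, and symbols that start with Uqcr, Cox4 to Cox8 or Atp5), and each had to have at least 1 transcript of the protein_coding type in GENCODE M21. The symbols matched 97 genes, of which 85 had a coding transcript and 12 did not. The 85 genes, of 55536 annotated genes, fall into 37 of complex I, 4 of complex II, 8 of complex III, 18 of complex IV and 18 of complex V. The choice used symbols and transcript types only and no measured value.

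Total RNA depleted of ribosomal RNA was sequenced from the cytosol of macrophages grown from the bone marrow of C57BL/6J mice. All 3 libraries come from a single group of primary cells, which received 100 ng/ml Lipid A (the endotoxin part of lipopolysaccharide) for 12 h, 12 h without it, and then 100 ng/ml again for 20 min. In the labels the libraries are biological replicates 1, 2 and 3 of a single donor identifier, and sex and age are not stated. With 1 group, no difference between treatments could be measured, and an exact sign-flip test over 3 libraries cannot give a p below 0.25, so levels carry an SD and no p. Untreated cells and nuclear RNA were not analysed here.

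Complex I takes electrons from NADH and complex II from succinate. Electrons pass over ubiquinone to complex III and over cytochrome c to complex IV, which reduces oxygen, and complex V makes ATP from the proton gradient that complexes I, III and IV build. Several small subunits of complex IV exist as paralogs that are used in different tissues (heart and skeletal muscle, testis, lung or other tissues), and classically activated macrophages are known for a shift from respiration towards glycolysis.

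Sequences of 2 kinds carry the results and are shown first. The opening 120 bases, start codon in front, are given for copies that are identical to all or part of a transcript of a member. Reads that lie wholly within such an identical stretch cannot be assigned to 1 gene. Gm10175, a transcribed processed pseudogene at chr7:23946646-23947290 (minus strand, mm10), has a 441-base transcript with 0 mismatches to a 441-base coding transcript of Atp5g2. The main transcript of Atp5g2 in these cells is another coding one, of 731 bases. Ndufb4c, a processed pseudogene at chr15:73809507-73809896 (minus strand, mm10), has a 390-base transcript that lies with 0 mismatches inside the 971-base transcript of Ndufb4, from base 95. Both sequences are from the GENCODE M21 transcripts.
Gm10175 and Atp5g2: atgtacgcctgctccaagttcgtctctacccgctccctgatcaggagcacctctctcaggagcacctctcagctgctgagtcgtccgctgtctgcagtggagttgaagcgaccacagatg
Ndufb4c and Ndufb4: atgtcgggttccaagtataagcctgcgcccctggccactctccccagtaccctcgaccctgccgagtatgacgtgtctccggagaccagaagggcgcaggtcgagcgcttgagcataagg

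The 150 bases upstream of the gene start are given for 3 pairs of complex IV paralogs, the first of each pair abundant in these cells and the second at or near 0. They are from RefSeq (GRCm38.p6), and capitals mark CpG dinucleotides. Cox8a lies at chr19:7217617-7217766 (minus strand) and Cox8b at chr7:140900447-140900596 (minus strand). Cox7a2 lies at chr9:79759879-79760028 (minus strand) and Cox7a1 at chr7:30183994-30184143 (plus strand). Cox7b lies at chrX:106015550-106015699 (plus strand) and Cox7b2 at chr5:71548206-71548355 (minus strand).
Cox8a: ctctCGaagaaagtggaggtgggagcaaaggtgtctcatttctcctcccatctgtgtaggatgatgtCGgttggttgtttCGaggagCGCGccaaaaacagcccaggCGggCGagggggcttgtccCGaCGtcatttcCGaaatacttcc
Cox8b: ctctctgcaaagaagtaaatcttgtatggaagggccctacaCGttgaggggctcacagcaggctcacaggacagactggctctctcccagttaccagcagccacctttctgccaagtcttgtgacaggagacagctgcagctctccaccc
Cox7a2: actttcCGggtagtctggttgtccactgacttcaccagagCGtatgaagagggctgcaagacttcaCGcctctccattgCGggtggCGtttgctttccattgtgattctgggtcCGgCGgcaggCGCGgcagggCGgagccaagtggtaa
Cox7a1: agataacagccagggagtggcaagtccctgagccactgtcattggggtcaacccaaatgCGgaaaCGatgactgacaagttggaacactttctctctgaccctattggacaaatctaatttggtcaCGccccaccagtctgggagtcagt
Cox7b: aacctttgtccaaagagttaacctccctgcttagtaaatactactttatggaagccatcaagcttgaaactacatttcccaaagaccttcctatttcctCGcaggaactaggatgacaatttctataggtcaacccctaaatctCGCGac
Cox7b2: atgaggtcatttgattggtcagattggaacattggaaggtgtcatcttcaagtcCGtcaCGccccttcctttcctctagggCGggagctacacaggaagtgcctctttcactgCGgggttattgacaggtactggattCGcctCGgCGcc
The Cox8a stretch holds 10 CpG and the Cox8b stretch 1, the Cox7a2 stretch 10 and the Cox7a1 stretch 3. Cox7b and Cox7b2 go the other way, with 3 CpG upstream of the abundant gene and 7 upstream of the gene at 0 counts.

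The libraries held 32055937, 43616634 and 47864978 expected counts on annotated genes in replicates 1, 2 and 3. Levels are in TPM, a measure of transcript abundance that divides counts by an effective transcript length and scales each library to a fixed sum. Protein-coding genes held 29.3% ± 2.99 (SD, n = 3) of that sum. All 5 macrophage markers were at 1 TPM or more in every library, with a summed level from 4311 to 4923 TPM. None of 5 striated muscle, 5 testis and 3 brown fat markers reached 1 TPM, and their summed levels stayed at or under 0.05, 0.15 and 0.02 TPM, with Acta1, Prm2 and Ucp1 at 0.

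Of the 85 members, 77 were at 1 TPM or more in every library, 6 had no count in any library, and Cox4i2 and Cox7a1 were in between. In TPM, members were abundant transcripts. Among the 9092 protein-coding genes at 1 TPM or more in every library the median was 8.46 ± 0.53 TPM, and 74 of the 77 members stood above it. The top 10 percent of these coding genes began at a mean of 51.4 TPM, and 37 members reached it. The median over all 85 members was 46.1, 45.9 and 40.2 TPM in replicates 1, 2 and 3. Together they held 1.49%, 1.71% and 1.56% of the TPM of coding genes, but 0.468%, 0.552% and 0.499% of their counts. Expressed members had a median length of 697 nt, against 2515 nt for the 9092 coding genes. How far length enters this comparison in TPM was not tested. In bulk RNA of this kind, fewer expressing cells and less RNA per cell cannot be told apart.

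Complex I, the largest complex, had the lowest median of the 5, with 30.8, 34.5 and 31.3 TPM in replicates 1, 2 and 3. Complex II stood at 48.3, 45.8 and 46.1 TPM. Complex III was at 72.0, 73.2 and 62.7 TPM, complex IV at 67.5, 64.5 and 51.6 TPM, and complex V at 77.0, 67.6 and 59.3 TPM. In each of the 3 libraries the medians of complexes II to V were above that of complex I. The ranges of complexes III, IV and V over the libraries overlapped. Within each library the median of complex IV was below those of complexes III and V. On the log2 scale the distance from complex I was 0.54 ± 0.12 for complex II, 1.10 ± 0.11 for complex III, 0.92 ± 0.20 for complex IV and 1.07 ± 0.22 for complex V (SD, n = 3).

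The level of complex IV depended on how paralogs near 0 were treated, since 6 of its 18 members were below 1 TPM in at least 1 library. Over the 12 that were not, the median was 127, 119 and 114 TPM, which put complex IV above every other complex at a log2 distance of 1.86 ± 0.10 from complex I. Counting all 18 with a mean of log2(TPM + 1) in place of the median turned the distance to -0.74.

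Transcript length differed between the complexes. Median lengths of expressed members were 701 nt in complex I, 1535 nt in complex II, 540 nt in complex III, 653 nt in complex IV and 718 nt in complex V. Across the 77 expressed members, level and length had a Spearman rho of -0.49, -0.51 and -0.44 in the 3 libraries, as a description of genes that share these libraries. With counts divided by the full length instead of the effective length, rho was -0.23, -0.26 and -0.19. On that scale the distance from complex I was 0.89 for complex II and 0.64 for complex III, so the order of these complexes depended on the length correction.

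**Figure D1:**
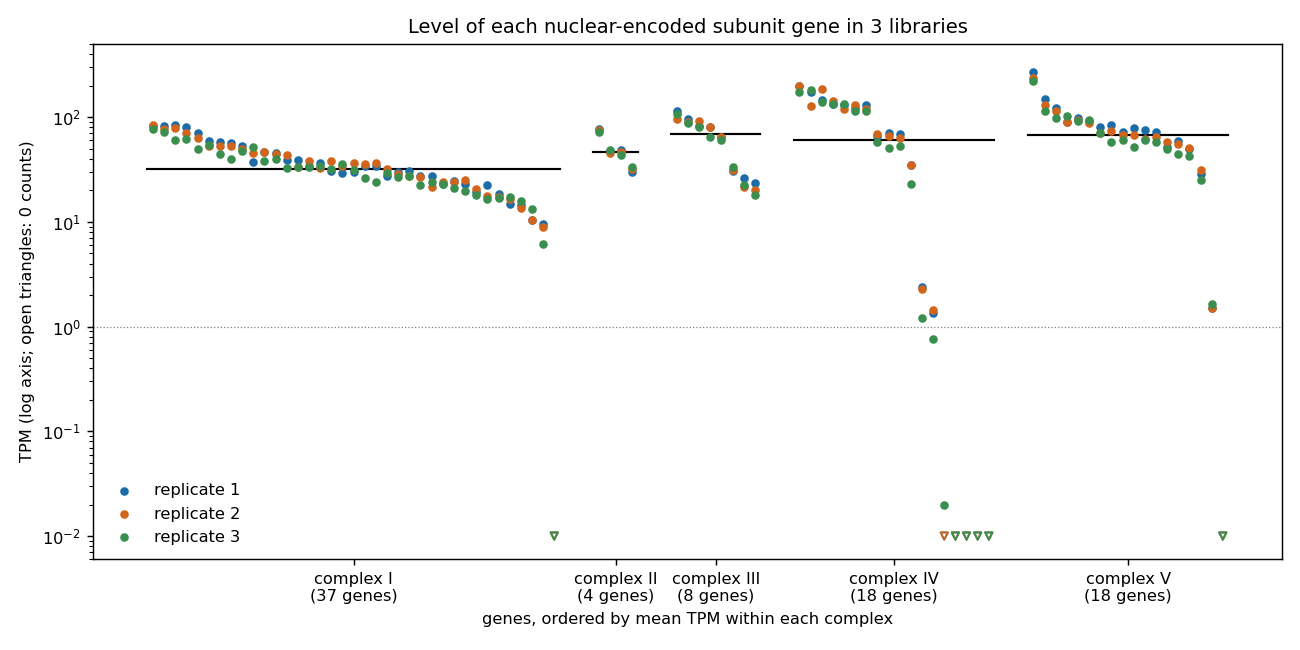
Deposited TPM (log axis) of each of the 85 member genes in replicates 1, 2 and 3 (points), ordered by mean within complexes I to V; black lines are the mean over libraries of the complex median, the dotted line is 1 TPM, and open triangles at the bottom are genes with 0 counts, where the 3 libraries lie on top of each other. Complex I steps down from Ndufb8 (mean 81.1 TPM) to Ndufb4 (8.25 TPM) and Ndufa4l2 at 0, while complexes IV and V hold the highest genes and a few near 0.

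Within complex I the 36 expressed members spanned 9.82-fold, from 8.25 to 81.1 TPM. The highest were accessory subunits of the membrane arm. Ndufb8 had 83.1, 83.7 and 76.3 TPM in replicates 1, 2 and 3. Ndufc2 had 82.7, 76.7 and 72.2 TPM. Ndufa3 had 83.3, 78.1 and 61.0 TPM. The 3 genes overlapped in level, with replicate 3 the lowest for each, and Ndufb8 was above Ndufc2 in every library.

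The 7 core subunits, which carry the flavin and iron-sulfur clusters of the hydrophilic arm, had a median of 27.9 ± 1.00 TPM, against 34.5 ± 2.82 TPM for the 30 accessory members, which by symbol include Ndufa4 and Ndufa4l2. The log2 ratio of core to accessory medians was -0.23, -0.46 and -0.21 in replicates 1, 2 and 3, and -0.0095 on the full-length scale. Its mean over the libraries was -0.30, and again -0.30 with Ndufa4 and Ndufa4l2 placed in complex IV. Ndufs3 was the highest core gene at 39.2, 33.8 and 33.3 TPM. Ndufv1, the subunit that binds NADH, was the lowest at 10.5, 10.3 and 13.2 TPM. Ndufs1, the largest core subunit, had 14.5, 13.6 and 15.7 TPM, and shares exonic sequence on the opposite strand with Eef1b2 (77.2, 71.6 and 76.4 TPM). The strand setting of the counting is not given in the sources used here, so reads of the overlap cannot be told apart.

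All 4 subunits of succinate dehydrogenase, complex II, were expressed within a 2.35-fold range. Sdhb, the iron-sulfur subunit, had 76.7, 75.3 and 72.5 TPM. Sdha, the flavoprotein that oxidises succinate, had 49.1, 46.4 and 43.9 TPM. The membrane anchor Sdhd had 47.6, 45.1 and 48.3 TPM, and the other anchor, Sdhc, had 29.8, 32.1 and 33.6 TPM. Sdhb was above the other 3 and Sdhc below them in every library, while Sdha and Sdhd overlapped.

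In deposited TPM complex III split by the kind of subunit, which here goes with transcript length. Small accessory subunits were high. Uqcrh, the hinge protein at cytochrome c1, had 114, 97.0 and 108 TPM. Uqcrb had 97.0, 90.5 and 87.5 TPM, and Uqcrq had 82.2, 91.4 and 81.1 TPM. The core protein Uqcrc1 had 30.7, 31.3 and 33.3 TPM and the core protein Uqcrc2 23.3, 20.1 and 18.1 TPM, and Uqcrfs1, the Rieske iron-sulfur protein, had 26.2, 21.6 and 22.3 TPM. These 3 larger subunits lay below all the small ones in every library, with mean levels from 20.5 to 31.7 TPM. Their transcript lengths were 1363 to 1875 nt, against 445 to 546 nt for the small ones. Kind of subunit and transcript length therefore cannot be told apart here. Uqcrb shares 54.3% of the 31-base words of its coding transcripts with other annotated genes.

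Complex IV held 3 of the 4 highest members. Cox4i1, which binds adenine nucleotides and lies at chr8:120668222-120674207, had 197, 197 and 174 TPM. Cox5a had 174, 127 and 184 TPM, with replicate 2 far below the other libraries. Cox8a had 146, 184 and 139 TPM. The ranges of the 3 genes overlapped, while Cox4i1 was above Cox8a in every library.

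In complex V the highest gene of all members, by TPM summed over all its transcripts, was Atp5b (chr10:128083273-128090391), the catalytic beta subunit, at 270, 236 and 220 TPM. Atp5a1, the alpha subunit that is present in the same number per enzyme, had 89.8, 89.9 and 103 TPM. Of the Atp5b TPM, 51.4% ± 3.09 was assigned to its coding transcript and 39.9% ± 4.04 to a 478-base processed transcript. For Atp5a1 the coding share was 99.6% ± 0.45. The rank of Atp5b and its distance from Atp5a1 in TPM therefore depend on that division. The 5 genes of the F1 head had a median of 92.5 ± 4.56 TPM, 4 stalk genes 67.6 ± 8.75 TPM, 4 genes of small membrane subunits 83.0 ± 8.27 TPM and the 3 genes of subunit c 47.8 ± 4.65 TPM. Atp5l, subunit g, had 150, 131 and 116 TPM and Atp5e, subunit epsilon, 122, 115 and 97.7 TPM. Atp5s, a coupling factor that is no structural subunit, had 1.49, 1.5 and 1.63 TPM, and a second gene model with the symbol Atp5o, which shares 94.0% of its words with other genes, had no count.

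Paralogs of complex IV were expressed very unequally. In each family with a ubiquitous and a tissue-specific form, the ubiquitous form was the abundant one and the other was far lower or at 0 counts. Cox4i2, the lung form that responds to low oxygen, had 0, 0 and 1 count. Against Cox4i1 this gives a ratio of 20942 over the pooled libraries, with an exact Poisson interval (95%) from 3759 to 827183. The upper limits that the authors deposited for Cox4i2 were 0.187, 0.116 and 0.150 TPM in replicates 1, 2 and 3. Cox4i1 stood at least 1053-fold above them. Testis forms had no count in any library. Against the limit of 3 counts per library, Cox6b1 (134, 144 and 134 TPM) was at least 539-fold higher than Cox6b2, Cox7b (34.9, 34.6 and 23.1 TPM) at least 180-fold higher than Cox7b2, and Cox8a at least 551-fold higher than Cox8c. Cox8b, a heart and muscle form, also had no count and was at least 323-fold lower than Cox8a. Such limits and intervals cover counting error only. The intervals that the authors deposited with each level are wider for Cox6b2, from 0.309 to 1.32, 0.186 to 0.791 and 0.178 to 0.762 TPM in replicates 1, 2 and 3, so that Cox6b1 stood at least 101-fold above their upper limits. For the other 3 pairs with a gene at 0 counts the lowest ratio to the deposited upper limit was 185 (Cox7b2), 560 (Cox8c) and 332 (Cox8b). In the second quantification deposited for the same libraries Cox8b had 0.26 TPM in replicate 1 and Cox7b2 0.029 and 0.020 TPM in replicates 1 and 2, with 0 in the other libraries, and Cox6b2 and Cox8c were at 0.

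The other muscle forms were detected at a low level. Cox6a2 (chr7:128205435-128206387) had 53, 83 and 46 counts, which is 2.37, 2.27 and 1.21 TPM, against 123, 131 and 115 TPM for Cox6a1. Its level was lower by 52.0-, 57.7- and 95.1-fold, and by 27.0-, 27.5- and 50.05-fold in the second quantification. Cox7a1 had 11, 20 and 11 counts, which is 1.35, 1.45 and 0.77 TPM, against 68.5, 62.9 and 52.6 TPM for Cox7a2. That ratio was 50.7-, 43.4- and 68.3-fold, and 41.0-, 43.1- and 65.5-fold in the second quantification. Both muscle forms were lowest in replicate 3, in TPM, and the muscle markers Acta1, Ckm, Myh4, Myh6 and Tnnt3 summed to at most 0.05 TPM.

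Cox7a2l, a member by symbol that encodes a factor of respiratory supercomplexes and not a subunit of complex IV itself, had 66.5, 68.8 and 58.6 TPM, as much as Cox7a2. Ndufa4, named for complex I but a subunit of complex IV, had 70.3, 63.9 and 49.4 TPM. Its hypoxia-inducible paralog Ndufa4l2 had no count and was at least 630-fold lower against the limit of 3 counts, and at least 154-fold lower against the upper limits the authors deposited (0.456, 0.278 and 0.265 TPM). A further paralog outside the symbols, AA467197 (chr2:122636986-122641191), known from inflammatory activation of macrophages, had 5.43, 2.86 and 2.45 TPM, or 148, 128 and 114 counts. Ndufa4 was 13.0-, 22.3- and 20.2-fold above it, and the ratio was lowest in replicate 1, where AA467197 was highest.

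**Figure D2:**
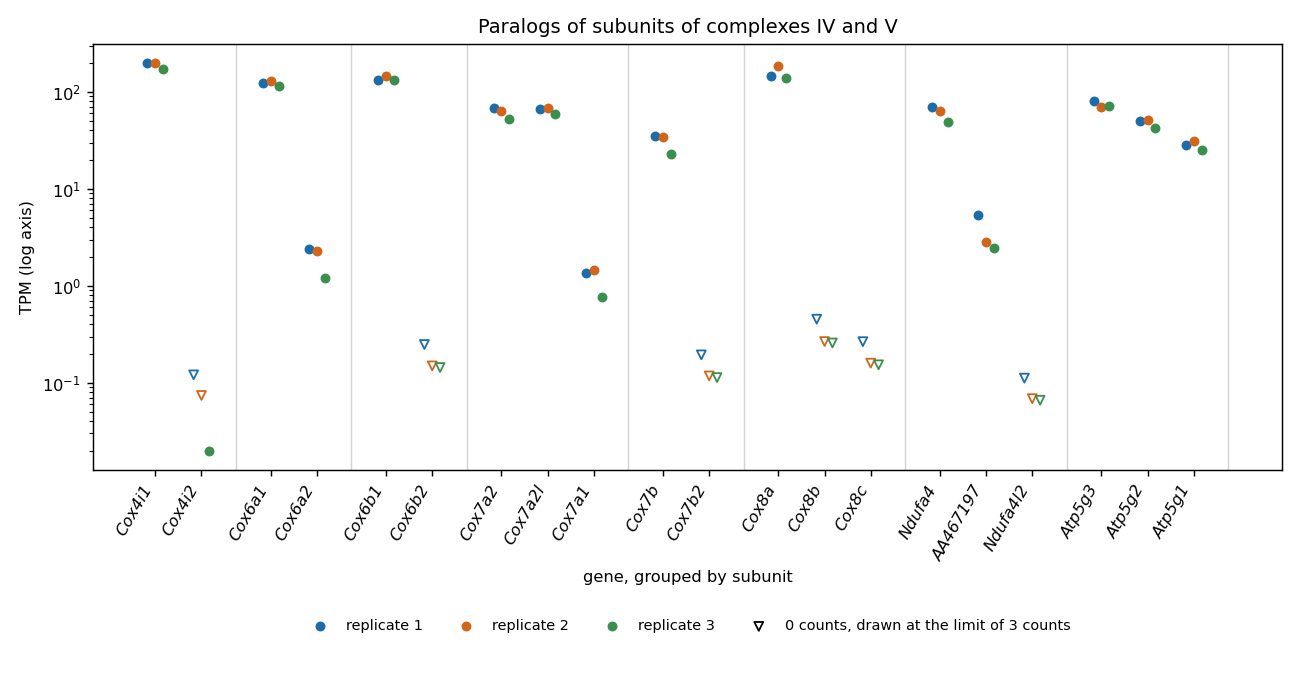
Deposited TPM (log axis) of paralogous genes in replicates 1, 2 and 3, grouped by subunit; filled points are measured values and open triangles are genes with 0 counts, drawn at the level that 3 counts would give. The first gene of each complex IV family lies between 23.1 and 197 TPM and its tissue-specific partners at or below 2.37 TPM, while the 3 genes of subunit c are all expressed. Cox7a2l (58.6 to 68.8 TPM) and AA467197 (2.45 to 5.43 TPM), drawn beside Cox7a2 and Ndufa4, lie above that level.

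Subunit c, which forms the rotor ring of ATP synthase, is made from 3 genes that encode the same mature protein. Atp5g3 had 80.7, 70.2 and 71.0 TPM. Atp5g2 (chr15:102662864-102672352) had 50.0, 50.9 and 42.4 TPM and Atp5g1 28.4, 31.02 and 25.3 TPM. The order was the same in every library, with shares of 49.4% ± 2.78, 31.8% ± 1.48 and 18.8% ± 1.37 of their sum (SD, n = 3).

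The share of Atp5g2 depended on how reads were divided with the copy printed above. The match of Gm10175 to Atp5g2 is partial, with 37.5% of the words of the Atp5g2 coding transcripts found in Gm10175. The 731-base coding transcript of Atp5g2 was assigned 99.4% ± 0.25 of its TPM in the first quantification. In the second quantification it was assigned 93.1% to 97.6%. The second quantification, which the deposited text derives from read files where the first derives from alignments, gave Atp5g2 5.16, 3.05 and 2.67 TPM and Gm10175 28.8, 39.6 and 24.4 TPM. The first gave Gm10175 13.0, 20.1 and 15.5 TPM. The unscaled ratio of the second to the first had a median of 0.49 over expressed members, so both were rescaled to the sum of coding genes before comparison. On that scale the second over the first was 0.15 for Atp5g2 alone and 1.07 for the sum of Atp5g2 and Gm10175. In the second, the shares of Atp5g3, Atp5g2 and Atp5g1 were 67.4%, 6.75% and 25.8%, which reverses the order of Atp5g2 and Atp5g1.

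Ndufb4, an accessory subunit of complex I, was the lowest expressed member of that complex at 9.63, 9.01 and 6.12 TPM, and Ndufb4c, whose sequence lies wholly within it, had 38.1, 44.9 and 32.4 TPM. All of the words of Ndufb4c occur in Ndufb4, and 38.3% of those of Ndufb4 in other genes. Summed, the pair had 47.8, 54.0 and 38.5 TPM, and the second quantification over the first was 1.15 for Ndufb4 and 1.01 for the sum. The level of Ndufb4 depends in part on how the shared reads are divided, which these files do not settle. Its mean was the lowest of the expressed members of complex I in both quantifications. In the second it was 4.78 TPM, against 5.76 TPM for Ndufv1, but in replicate 2 Ndufv1 was lower (5.54 against 6.36 TPM).

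For the other members the 2 quantifications were close. Over the 77 expressed members the rescaled ratio had a median of 0.97 and lay within 1.5-fold for 75. The exceptions were Atp5g2 and Cox6a2, the latter with 1.96. Besides Atp5g2, the largest differences among members of 10 TPM or more were 1.28 for Cox7b, 0.81 for Atp5b, 1.17 for Sdhc and 1.12 for Ndufb5.

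**Figure D3:**
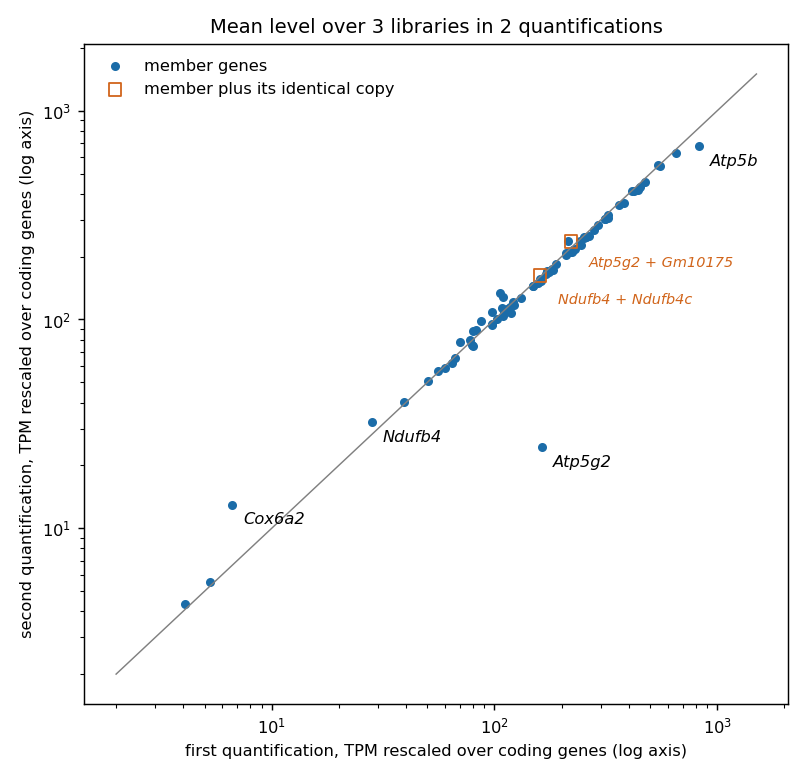
Mean over 3 libraries of each expressed member in the first (x axis) and second (y axis) quantification, both as TPM rescaled to the sum of coding genes on log axes; the line marks equal values and orange squares are a member summed with its identical copy. Atp5g2 lies far below the line alone and on it when summed with Gm10175, and Ndufb4 moves along the line when summed with Ndufb4c.

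How much the members varied between libraries was tested against counting noise with edgeR, in CPM, counts relative to library size, scaled by the TMM method. A gene was called as varying at an adjusted p under 0.05 with at least 1.5-fold between the highest and lowest library. Of 78 members tested, 4 were called, against 20.8% of the 12372 genes tested (2568 genes). By adjusted p alone 67 of 78 were called, against 71.1% of all genes, so differences beyond counting noise were common and mostly small. The median SD of log2(CPM + 1) was 0.15 for members and 0.15 for all genes tested.

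The 4 called members were Cox7b, Ndufb4, Ndufa12 and Cox6a2. Cox7b had 43.0, 48.4 and 30.2 CPM in replicates 1, 2 and 3, a 1.604-fold range (edgeR adjusted p = 7.35e-45). Ndufb4 had 11.4, 12.2 and 7.65 CPM, a 1.59-fold range (edgeR adjusted p = 6.00e-12). Ndufa12, an accessory subunit of complex I, had 20.0, 25.1 and 16.3 CPM, a 1.54-fold range (edgeR adjusted p = 4.00e-19). Cox6a2 had 1.70, 1.87 and 0.95 CPM, a 1.97-fold range (edgeR adjusted p = 0.000724). Replicate 3 was the lowest and replicate 2 the highest for all 4. Without replicate 3 no member was called (12.2% of all genes were), and without replicate 2 only Cox6a2 was (13.5% of all genes).

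Other members of 10 TPM or more with a large spread stayed under 1.5-fold. Cox8a had 74.5, 109 and 78.04 CPM, a 1.46-fold range. Ndufa5 had 15.4, 21.1 and 22.4 CPM, a 1.45-fold range, and Ndufs6, which overlaps Mrpl36 on the opposite strand (12.5, 12.7 and 11.1 TPM), had 16.5, 23.7 and 18.9 CPM, a 1.44-fold range. Of these 3, Ndufa5 was highest in replicate 3 and the others in replicate 2.

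The members tended to share the order of the libraries. In CPM, replicate 2 was the highest library for 56 of 78 members, against 35.1% of all genes tested, and replicate 3 the lowest for 46, against 32.3%. Their share of the counts of coding genes was 0.468%, 0.552% and 0.499% in replicates 1, 2 and 3. This order depends on the scaling. In deposited TPM, replicate 1 was the highest for 41 members and for 53.2% of all genes, and replicate 2 for 24 members and 18.9% of all genes. On the scale of coding genes replicate 2 was again the highest for 58, against 34.0% of all genes. The lowest library changed with the scaling too. In deposited TPM it was replicate 3 for 54 members, against 31.9% of all genes. On the scale of coding genes it was replicate 1 for 47 members (49.2% of all genes) and replicate 3 for 28 (22.2%).

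**Figure D4:**
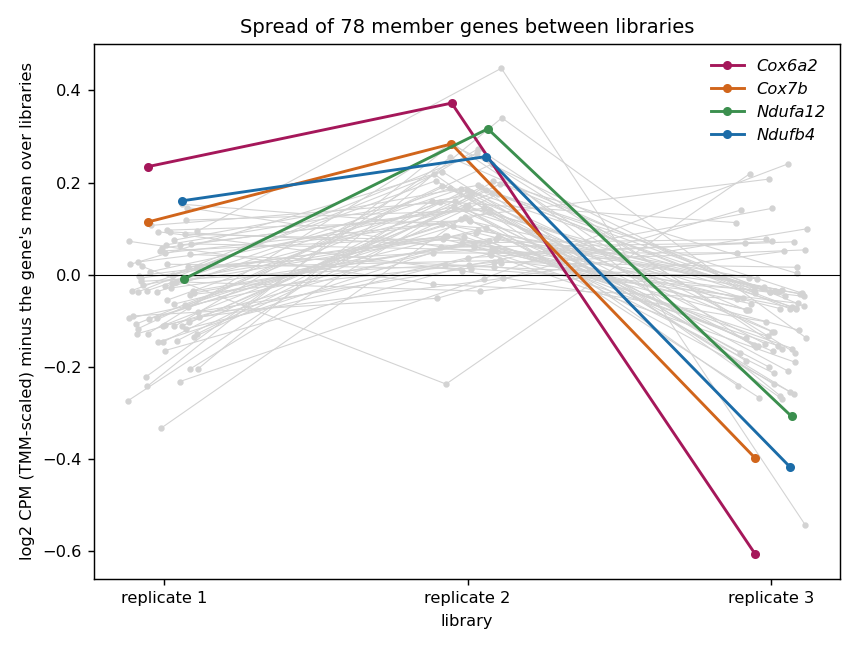
For each of the 78 members tested, log2 of TMM-scaled CPM minus the gene's own mean, in replicates 1, 2 and 3; lines join the values of a gene, coloured for the 4 called as varying and grey for the rest. Most points of replicate 2 lie above 0, and Cox6a2, Cox7b, Ndufb4 and Ndufa12 have their lowest value in replicate 3.

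The reads of most members were assigned mainly to coding transcripts, as for coding genes at large. A median of 99.2% of a member's TPM was assigned to transcripts of the protein_coding type, against 97.5% for the 9092 coding genes, and 60 of the 77 expressed members had at least 90% (77.9%, against 72.2% of coding genes). In expected counts these shares were 84.4% and 83.3%. In 4 members the main transcript was of another type. Ndufa5 was assigned mostly to a 453-base processed transcript (57.3%, 63.8% and 56.9% in replicates 1, 2 and 3), and its 875-base coding transcript had 12.5%, 9.63% and 8.07%. Ndufs4, whose loss causes complex I deficiency, was assigned mostly to a 571-base transcript annotated as a target of nonsense-mediated decay (55.6%, 52.2% and 58.4%). Atp5j, coupling factor 6 in the stalk, was assigned mostly to a 526-base retained-intron transcript (68.0%, 70.4% and 59.3%). Ndufc1 had 35.9%, 47.0% and 41.5% on a 311-base retained-intron transcript, while its coding transcripts together had 44.5% ± 5.53 of its TPM.

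The coding share fell under 50% for 5 members in TPM (6.49%, against 4.88% of coding genes) and for 2 members in expected counts (2.60%, against 2.60% of coding genes). For all 5 it was higher in counts than in TPM. The 2 in counts were Ndufa5 at 29.4% ± 6.34 and Atp5j at 48.1% ± 6.03. In TPM, Atp5b, the most abundant member, had 51.4% ± 3.09 on its 1916-base coding transcript and 39.9% ± 4.04 on a 478-base processed transcript. Atp5f1, subunit b of the stalk, had 49.98% ± 1.55 on its coding transcript and 48.9% ± 1.76 on a 1311-base decay target. Atp5j overlaps Gabpa on the opposite strand (7.81, 6.36 and 5.97 TPM), and 14 expressed members overlap an exon of an opposite-strand gene of 1 TPM or more.

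**Figure D5:**
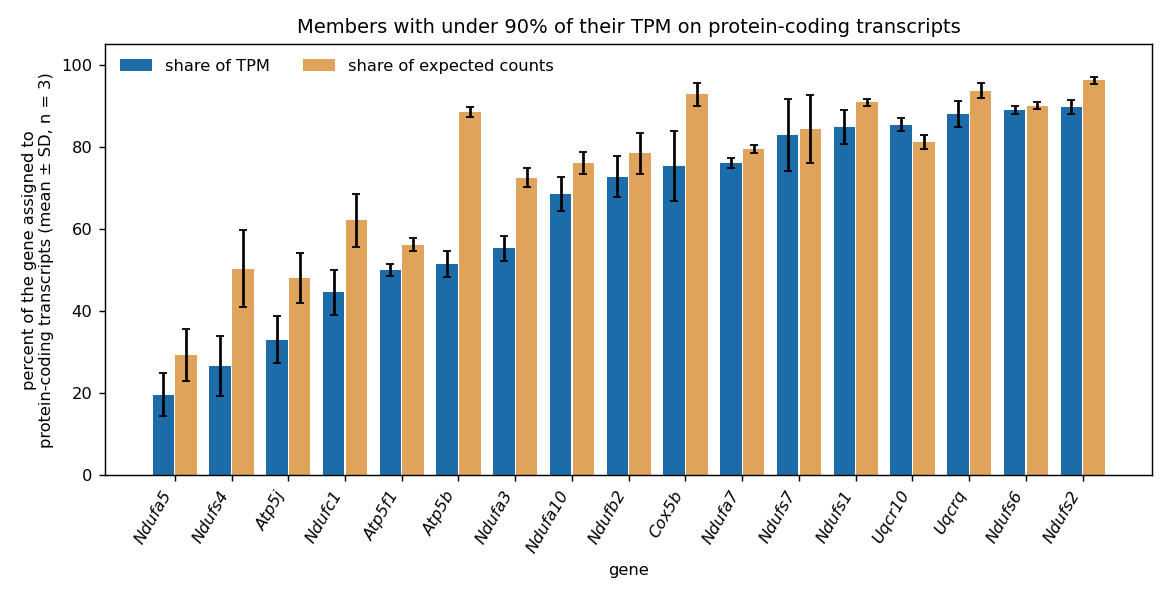
Percent of each gene assigned to protein-coding transcripts, by TPM (blue) and by expected counts (orange), as mean ± SD over 3 libraries, for the members with under 90% by TPM. Ndufa5 is the lowest on both scales, and Atp5b is at 51.4% by TPM and 88.4% by counts.

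Promoter sequence was matched for 66 of 84 member symbols. In the 250 bases upstream of the RefSeq start, on either strand, the letters CCGGAAG, the core bound by GABP (nuclear respiratory factor 2), were present for 11 of 62 expressed members (17.7%), against 16.4% of coding genes at 1 TPM or more and 9.45% of all coding genes. The letters CGCATGCG, the core bound by nuclear respiratory factor 1, were present for 6 of 62 (9.68%), against 3.73% and 2.19%. Atp5g2, Atp5k, Atp5l, Cox6a1, Ndufa8 and Ndufa11 were those 6. CCAAT was found for 26 of 62 (41.9%, against 36.7% and 36.0%), TATAAA for 5 of 62 (8.06%, against 5.90% and 11.9%) and the YY1 letters AAGATGGC for 0 of 62 (against 2.36% and 1.51%). None of the 4 matched members below 1 TPM in at least 1 library (Cox6b2, Cox7a1, Cox7b2 and Cox8b) held the first pair of cores. Expressed members had a median of 14 CpG in the window and these 4 a median of 6, against 17 for coding genes at 1 TPM or more and 10 for all coding genes. A match is a string of letters and no measured binding.

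Other genes of the pathway were read from fixed lists. Subunits whose symbols fall outside the selection lay within the range of all expressed members. Usmg5, a small subunit of ATP synthase, had 188, 167 and 162 TPM, and Ndufab1, the acyl carrier protein of complex I, 26.0, 31.3 and 26.5 TPM. Cyc1, cytochrome c1 of complex III, had 20.6, 17.8 and 17.9 TPM, below every member of complex III in each library. Cycs, cytochrome c, had 21.3, 14.3 and 15.5 TPM, and its testis form Cyct had no count. Atpif1, the inhibitor of ATP hydrolysis by complex V, had 131, 141 and 113 TPM.

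The factors that assemble the complexes were lower than the subunits. Of 47 assembly factors, 43 were at 1 TPM or more in all 3 libraries, their median was 5.97 ± 0.39 TPM, and 3 of 46 tested were called as varying, against 20.8% of all genes tested. Cox17, the copper chaperone of complex IV, was the highest at 97.7, 90.5 and 108 TPM, and Pet117 had no count. For complex I, Ndufaf8 was the highest (13.7, 10.2 and 12.7 TPM) and Nubpl the lowest (0.93, 0.90 and 0.77 TPM). Sdhaf2 (19.4, 15.5 and 17.0 TPM) and Sdhaf3 (0.49, 0.36 and 0.35 TPM) were the extremes for complex II. For complex III these were Uqcc2 (35.6, 31.3 and 28.9 TPM) and Lyrm7 (0.13, 0.36 and 0.24 TPM), and for complex V Tmem70 (6.99, 6.36 and 6.44 TPM) and Atpaf1 (4.42, 4.34 and 4.74 TPM).

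Dehydrogenases and carriers that feed electrons to ubiquinone had a median of 8.92 ± 1.19 TPM over 5 genes, with Etfb highest (18.6, 21.3 and 22.5 TPM) and Dhodh lowest (2.41, 2.91 and 3.74 TPM). Of 9 transcriptional regulators of the pathway, 8 were at 1 TPM or more. Esrra, an orphan nuclear receptor, was the highest at 10.9, 8.30 and 11.0 TPM, and Ppargc1a, a coactivator of mitochondrial biogenesis, had 0, 1 and 3 counts. None of the 8 tested was called as varying with the same edgeR test, against 20.8% of all genes tested.

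The 13 subunit genes of the mitochondrial genome summed to between 2185 and 3165 TPM, against 4618 ± 277 TPM for the 85 nuclear members. The RNA is from the cytosol, and how much RNA of mitochondria it holds was not measured. These sums therefore do not compare the mitochondrial and nuclear genes in whole cells. Single levels of the 13 genes differed between the quantifications. The highest, mt-Atp8, had 979, 716 and 915 TPM in the first and 210, 180 and 173 TPM in the second, and the lowest, mt-Co2, had 8.58, 0 and 5.60 TPM in the first and 32.0, 10.6 and 13.2 TPM in the second.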

How the data were processed

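The members, gene lists and tests were chosen with earlier results of these data known. Per the file headers, the authors deposited 1 gene table (expected counts, which are estimated reads, and TPM) and 2 transcript tables per library, the second with estimated counts and TPM from another quantification. The authors also give the percent of each gene's TPM per transcript (file headers). Per the labels and the deposited text the build is mm10 and the annotation GENCODE M21. Which programs, versions and strand setting were used is not given in the sources used here. Levels are the deposited TPM, as mean ± SD of 3 libraries; SDs and p-values measure the spread between these samples, which may be technical. Expected counts were rounded and tested with edgeR 4.0.16 (R 4.3.3; filterByExpr, TMM, dispersion 0, likelihood ratio test, Benjamini-Hochberg), which compares libraries with counting noise only; the script was tested on simulated counts. DESeq2 1.42.0 gave alternative size factors. Words are 31 bases of coding transcripts. Named were the 3 highest and 2 lowest members of each complex, paralogs, the 5 members of 10 TPM or more with the largest SD and the 5 with the largest ratio between quantifications, called members, members whose main transcript is not coding, and the extremes of the other lists; further members were chosen after their values were seen. Protein sequences and the promoters of Cox4i1 and Cox4i2 were not used here. The alternatives are given in the closing section.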

Additional observations from a re-analysis of the deposited data

Results flagged for a closer look

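Of the 12 genes that match the symbols without a coding transcript, 2 had a signal of 1 TPM or more in every library, which stands outside the 85 members. Ndufb1-ps (chr12:101968090-101977068, minus strand, mm10) is annotated as a long noncoding RNA from a bidirectional promoter and had a mean of 40.9 ± 6.36 TPM (48.2, 37.6 and 36.9 TPM in replicates 1, 2 and 3, from 1135, 1452 and 1501 expected counts). It shares 0 of its 31-base words with other genes, the second quantification gave it 20.2 ± 4.35 TPM, and its level lies within the range of the expressed subunits of complex I. Ndufb4c, the processed pseudogene identical to part of Ndufb4, had a mean of 38.5 ± 6.30 TPM (from 306, 608 and 454 expected counts), with 100% of its words shared with Ndufb4, and 19.2 ± 5.87 TPM in the second quantification. The other 10 were at 0.12 TPM or lower on average.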

How the results depend on the processing

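The medians of complexes II to V stayed above that of complex I under every alternative run except the mean of log2(TPM + 1), which takes in the members near 0. It gave log2 distances of 0.71, 0.85, -0.74 and 0.74 for complexes II, III, IV and V; for complex IV, 6 of 18 members are below 1 TPM in a library, and over expressed members only (chosen after seeing the data) the distance was 1.86. With counts divided by full length the distances were 0.89 for complex II and 0.64 for complex III, and the core to accessory ratio of complex I was -0.0095. The median of all members was 20.999 TPM in the second quantification, 65.0 on the full-length scale, 151 on the scale of coding genes, 31.7 as a mean of logs and 49.4 over expressed members. Leaving out each library in turn gave 0.48 to 0.60, 1.04 to 1.16, 0.81 to 1.02 and 0.95 to 1.15 for complexes II to V, -0.35 to -0.22 for core over accessory and 43.0 to 45.99 TPM for all members. Members called as varying numbered 7 without the count filter (20.5% of all genes), 67 by adjusted p alone (71.1%) and 0 at 2-fold (8.79%; edgeR), and 0 to 4 when a library was left out (10.1% to 13.5%), with 0 without replicate 3 and 1 without replicate 2. These counts were 4 with DESeq2 size factors (20.7%) and 5 in the second quantification (25.5%). Leaving out a library left 77 or 78 members at 1 TPM or more. Beyond the construction of each alternative, the cause was not tested. No paired analysis was possible because the series has a single group. For the paralogs without counts, 3 counts stand for at most 0.453 TPM (Cox8b, replicate 1), while the authors' deposited upper limits reach 1.32 TPM (Cox6b2, replicate 1).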
